A study of Homo sapiens with 14 samples.

Results

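The genes described here encode the proteins that hold, fold, untangle and separate chromosomes: cohesin and its regulators, the protease separase and its inhibitor securin, the condensins, the SMC5/6 complex, type II topoisomerases, and the chromatin proteins CTCF and SMCHD1. The 35 genes were chosen by name from 19726 gene identifiers listed in either of 2 count tables. RNA-seq was performed on 14 libraries of CHP-134, an N-MYC amplified human neuroblastoma cell line. In 1 experiment, CHP-134 cells carried a doxycycline-inducible (Tet-On) lentiviral construct for enhanced green fluorescent protein (EGFP, 3 libraries) or for OmoMYC, a genetic inhibitor of MYC proteins (3 libraries), and both lines received 1 µg/ml doxycycline for 3 days in medium with tetracycline-approved serum. In the other, parental CHP-134 cells with no construct and in normal serum received 500 nM dTAG47 (4 libraries) or matched DMSO (4 libraries) for 18 h. dTAG47 is a degrader of proteins that carry an FKBP12(F36V) tag, which parental cells lack, so that comparison asks what the compound does without its target. EGFP and OmoMYC cells were engineered separately, so any difference between the lines is part of their comparison.

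Cohesin is a ring of SMC1A, SMC3 and RAD21 with a STAG subunit that holds sister chromatids together from S phase until anaphase and forms chromatin loops in interphase. Condensins fold chromosomes for mitosis, and topoisomerase II removes the tangles between sister DNA molecules. At anaphase, separase is released from securin and cuts cohesin. Several of these genes are transcribed most strongly in late S, G2 and M phase, so in bulk RNA fewer cells in those phases and less RNA per cell cannot be told apart.

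Libraries held between 28060817 and 53451641 counts assigned to genes. Levels are given as CPM, the counts of a gene relative to the total of its library after TMM scaling, a correction for library composition, and a gene was called suppressed or induced at a false-discovery rate (FDR) under 0.05 by edgeR's quasi-likelihood test, adjusted over all tested genes. The study's methods call the numbered libraries biological replicates and say no more of how they were kept apart, so p-values measure the spread between these libraries. MYCN, the amplified oncogene of this line, was high, at a mean of 2713 CPM with EGFP and 2679 CPM with DMSO, whereas the noradrenergic enzymes TH and DBH stayed under 1.5 CPM in every library. Marker lists of immune and epithelial cells summed to under 2 CPM in every library, and a list of 5 fibroblast genes to between 33.7 and 46.6 CPM with EGFP or OmoMYC and between 11.2 and 13.9 CPM in parental cells. Reads on MYC rose by 9.73 on the log2 scale with OmoMYC, where reads from the MYC-derived construct cannot be told from those of the gene itself.

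Of the 35 genes, SMC1A and HDAC8 could hardly be measured in the table that holds EGFP and OmoMYC. SMC1A, a core SMC subunit of the ring, had between 21 and 50 counts in those 6 libraries against 12752 to 16714 in the 8 parental libraries. A second identifier with the symbol SMC1A had 1 to 4 counts in those 6 libraries. HDAC8, the deacetylase that recycles SMC3, had 0 to 2 counts against 809 to 1219. SMC1A and HDAC8 were among 222 of 10451 genes, listed in both count tables with a mean of 5 CPM or more in DMSO libraries. The level of these 222 in EGFP libraries was under 5% of that in DMSO. For the other 33 of the 35 genes, the EGFP level was between 0.680 and 1.71 times the DMSO level, as the plot of control levels shows. In this comparison of EGFP with DMSO, CPM was taken without TMM scaling. The cause was not tested, and the values of SMC1A and HDAC8 with EGFP and OmoMYC are not read here as levels of these genes.

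**Figure D1:**
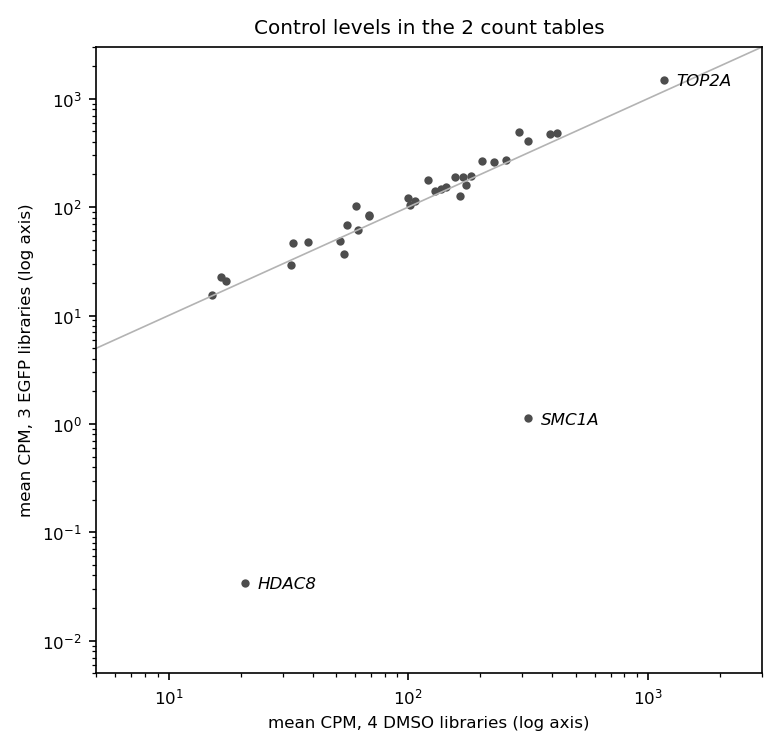
Mean CPM, without TMM scaling, of the 35 genes in 4 DMSO libraries (horizontal, log axis) and in 3 EGFP libraries (vertical, log axis). Each gene is 1 point, and a line marks equality. SMC1A and HDAC8 lie far below the line and the other 33 genes lie near it.

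Per kilobase of transcript, the canonical transcript of GENCODE being taken as the length, TOP2A was the highest of the 35 genes in both control groups, at 264 ± 31.3 CPM per kilobase with EGFP (SD, n = 3) and 205 ± 11.1 with DMSO (SD, n = 4). TOP2A encodes the topoisomerase of proliferating cells. With EGFP it was followed by PTTG1 (securin) at 143 ± 8.40, RAD21 at 111 ± 14.8 and NCAPD2 at 103 ± 1.90, of which RAD21 and NCAPD2 differed by less than the SD of RAD21. In DMSO libraries RAD21 at 86.3 ± 4.57, PTTG1 at 84.2 ± 2.23 and SMC4 at 81.3 ± 4.07 followed, and neighbours among these differed by less than the larger of their SDs. With the union of all exons as the length, TOP2A again came first, but the order below it changed: RAD21 went to the eighth place with EGFP (28.2 ± 3.77 CPM per kilobase) and the tenth with DMSO (22.0 ± 1.16), and NCAPD2 with EGFP (77.1 ± 1.42) and SMC4 with DMSO (50.9 ± 2.55) were then next to TOP2A. Between the lengths, 9 of the 10 highest genes with EGFP and 8 of the 10 with DMSO were shared.

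**Figure D2:**
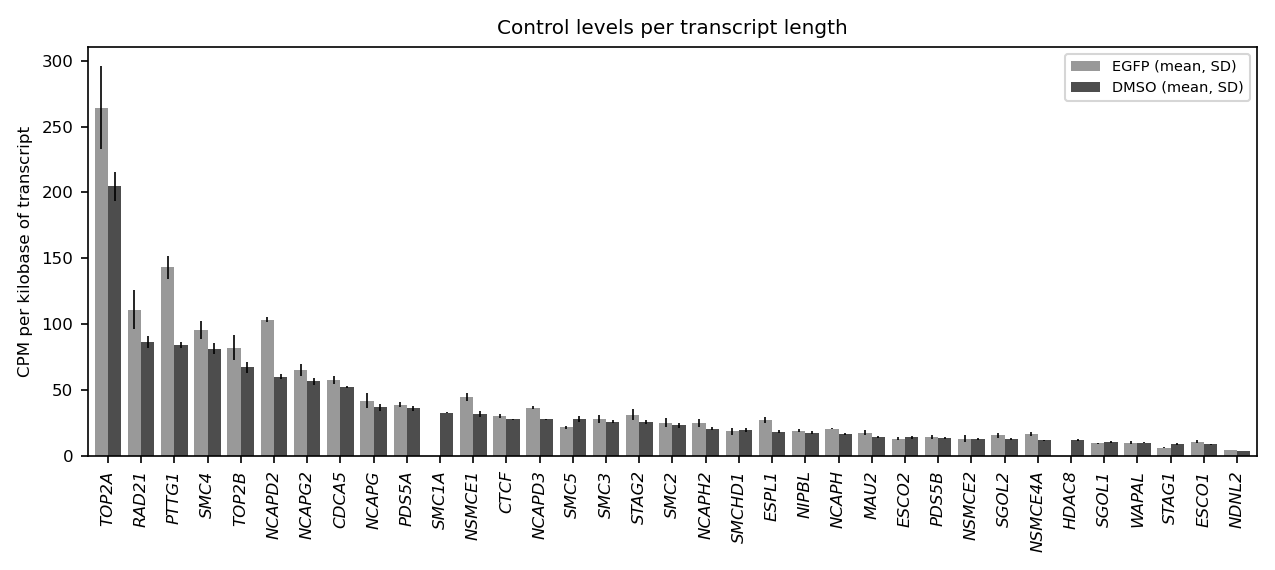
Level per kilobase of canonical transcript (vertical, CPM per kilobase) of each gene in EGFP and DMSO libraries, as mean and SD over 3 and 4 libraries. SMC1A and HDAC8 have no EGFP bar because they were hardly counted there, and TOP2A stands above the other genes in both groups.

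Induction of OmoMYC suppressed most of these genes. Of the 34 that were tested (HDAC8 was not), 25 were suppressed, 1 was induced and 8 were not called. The 34 include SMC1A, whose values are not read as a level: it is among the 8 and counts as lower below. Among all 13803 genes tested, 25.7% were suppressed and 27.3% induced. The median log2 fold change of the 34 genes was -0.40, where that of all tested genes was 0.01. Before any test, 30 of the 34 genes were lower with OmoMYC, against 48.9% of all genes, and 29 had an unadjusted p under 0.05, against 59.2%. The groups did not overlap in 29 genes, against 62.3% of all genes: in 28 the whole OmoMYC group was below the EGFP group, against 30.3%, and in MAU2 it was above. DESeq2 called 26 of the genes in either direction, against 46.3% of all genes it adjusted. The EGFP libraries differed from one another more than the OmoMYC libraries did. The coefficient of variation had a median of 9.98% with EGFP (35 genes) and 3.51% with OmoMYC (34 genes, HDAC8 having no counts there). EGFP replicate 1 was the highest control for 25 of the 34 tested genes and EGFP replicate 3 the lowest for 26. Without EGFP replicate 3, 29 genes were suppressed and 2 induced, and the median was -0.50: NIPBL, PDS5B, NSMCE2 and NDNL2 were then called suppressed and NCAPH2 induced. Calls over all genes rose as well, to 4184 suppressed and 4065 induced of 14009 tested. With every library they were 3545 and 3766 of 13803.

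**Figure D3:**
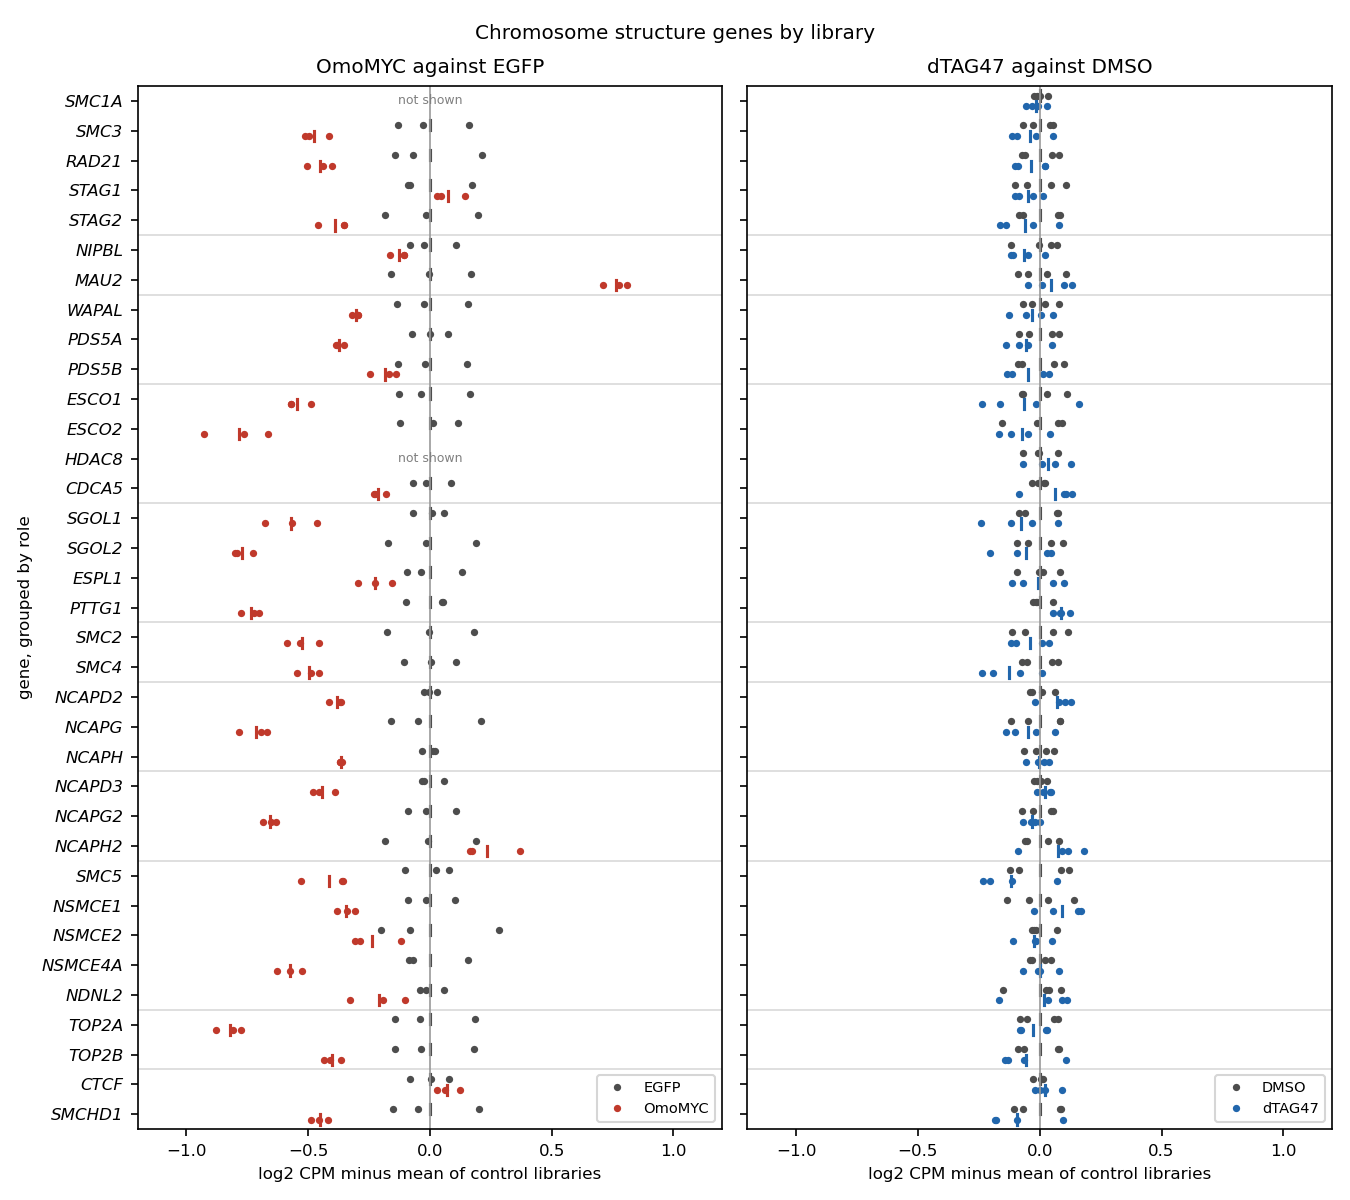
Log2 CPM of each gene in each library minus the mean of the control libraries (horizontal), for OmoMYC against EGFP (left) and dTAG47 against DMSO (right), with short bars for group means. Most OmoMYC points lie left of the EGFP points, MAU2 lies to the right, and dTAG47 points overlap DMSO points in every gene.

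The promoter windows of 3 suppressed genes of different roles and of the induced gene MAU2 are shown first, so that the sequence around their start sites can be read beside their values. The windows are those of RefSeq on GRCh38.p14, from 250 bases before to 50 after the start site, on the strand of the gene. Capitals mark matches on either strand to the letters TTTGAA (the cell cycle homology region, CHR), CCAAT (the CCAAT box), GCGGGAA (a form of the E2F site) and CACGTG (the E-box that MYC proteins can bind), and neighbouring CCAAT boxes in PTTG1 overlap. They are TOP2A at chr17:40417847-40418146 on the minus strand, NCAPG at chr4:17810729-17811028 and MAU2 at chr19:19320579-19320878 on the plus strand, and the upstream of the 2 PTTG1 windows at chr5:160421605-160421904 on the plus strand.
TOP2A: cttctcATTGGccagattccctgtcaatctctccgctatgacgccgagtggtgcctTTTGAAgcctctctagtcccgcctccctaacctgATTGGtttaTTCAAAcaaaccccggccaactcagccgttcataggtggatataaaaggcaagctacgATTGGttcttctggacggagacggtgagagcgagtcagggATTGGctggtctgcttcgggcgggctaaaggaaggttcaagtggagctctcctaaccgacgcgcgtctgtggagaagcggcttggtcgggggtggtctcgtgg
NCAPG: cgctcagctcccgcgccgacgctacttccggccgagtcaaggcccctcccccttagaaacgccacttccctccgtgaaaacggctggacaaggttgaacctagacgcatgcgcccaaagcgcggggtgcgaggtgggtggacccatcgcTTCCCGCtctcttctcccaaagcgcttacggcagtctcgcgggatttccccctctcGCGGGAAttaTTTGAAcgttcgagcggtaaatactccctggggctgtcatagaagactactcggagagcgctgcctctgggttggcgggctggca
PTTG1: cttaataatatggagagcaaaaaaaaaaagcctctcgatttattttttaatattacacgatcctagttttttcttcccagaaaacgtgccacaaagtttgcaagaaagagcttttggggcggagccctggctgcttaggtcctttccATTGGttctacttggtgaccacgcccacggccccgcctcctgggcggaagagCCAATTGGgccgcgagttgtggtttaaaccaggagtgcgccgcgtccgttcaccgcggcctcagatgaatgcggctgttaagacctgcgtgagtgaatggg
MAU2: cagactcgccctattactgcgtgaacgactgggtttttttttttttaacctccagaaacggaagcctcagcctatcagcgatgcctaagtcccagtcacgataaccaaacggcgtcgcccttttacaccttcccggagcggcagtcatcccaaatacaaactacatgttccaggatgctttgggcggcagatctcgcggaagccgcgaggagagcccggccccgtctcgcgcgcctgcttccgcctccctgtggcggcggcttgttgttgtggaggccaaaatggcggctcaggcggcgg

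The TOP2A window held 2 CHR and 4 CCAAT matches, the NCAPG window 1 CHR and 2 E2F matches, the PTTG1 window 3 CCAAT matches, and the MAU2 window none of these letters. The suppressed genes SMC5 and SMCHD1, whose windows are not shown, held none either, nor did NIPBL and NDNL2, which were not called. Of other suppressed genes not shown, each SGOL2 window held 1 CCAAT match, NCAPG2 held 1 CHR match and ESPL1 held 1 of each. The 3 suppressed genes shown thus have more matches than these. Windows were listed for 30 of the 35 genes, those of RAD21, ESCO1, ESCO2, NCAPH2 and NSMCE2 being missing. A CHR match was present in 12 of the 30 genes, a CCAAT match in 16, an E2F match in 6 and an E-box in 1 (SGOL1). Over all 27305 genes with a window, the shares were 18.2%, 39.7%, 7.82% and 8.77%, respectively. Among the 22 suppressed genes with a window, 10 held a CHR match, 14 a CCAAT match, 4 an E2F match and 1 an E-box. The other 8 genes with a window were the induced gene MAU2, genes that were not called, and SMC1A and HDAC8, which could hardly be measured with EGFP and OmoMYC. Among these 8, 2 held a CHR match, 2 a CCAAT match, 2 an E2F match (SMC1A and STAG1) and 0 an E-box. A match says only that the letters are there.

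TOP2A (ENSG00000131747.10, chromosome 17 from 38544777 to 38574148, minus strand, GRCh37) had the largest estimated fall of the 35 genes. Its level was 1702, 1459 and 1355 CPM in the EGFP libraries and 855, 875 and 814 CPM in the OmoMYC libraries. Every OmoMYC library was thus far below the lowest EGFP library, and the change was -0.83 ± 0.083 on the log2 scale (standard error, FDR = 2.74e-05). TOP2B, the topoisomerase that non-dividing cells also express, was at 538, 462 and 429 CPM with EGFP and at 351, 368 and 357 CPM with OmoMYC. It fell less, with a log2 fold change of -0.41 (FDR = 0.00204), and its groups did not overlap.

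Within the cohesin ring, 3 of the 4 subunits that could be read (SMC1A could not) were suppressed, where 25.7% of all tested genes were. SMC3 fell by 0.48 on the log2 scale, from 155 ± 16.2 to 111 ± 4.17 CPM (SD, n = 3 each), and RAD21, the subunit that separase cuts, fell by 0.46, from 406 ± 54.2 to 295 ± 10.7 CPM. STAG2, the STAG subunit with the higher count here, was at 218, 188 and 168 CPM with EGFP and at 149, 149 and 138 CPM with OmoMYC, a log2 fold change of -0.40 (FDR = 0.00489). STAG1, its paralogue, was at 41.5, 34.8 and 34.7 CPM with EGFP and at 38.1, 40.8 and 37.6 CPM with OmoMYC. The STAG1 groups overlapped and the gene was not called (95% interval of the log2 fold change -0.13 to 0.27).

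The genes that load and release cohesin moved in both directions. MAU2 (ENSG00000129933.16, chromosome 19 from 19431638 to 19469563, plus strand, GRCh37), which forms the loader with NIPBL, was the only gene of the 35 called induced. Its level was 75.3, 83.9 and 94.6 CPM with EGFP and 148, 138 and 144 CPM with OmoMYC, with no overlap. MAU2 rose by 0.76 ± 0.087 on the log2 scale (standard error, FDR = 6.39e-05). NIPBL, at 197 ± 13.2 CPM (EGFP) and 180 ± 4.07 CPM (OmoMYC), was not called (95% interval -0.28 to 0.02). WAPAL, which opens the ring, fell by 0.31 on the log2 scale. PDS5A, a scaffold for both release and maintenance of cohesion, was at 290, 275 and 262 CPM with EGFP and at 215, 211 and 210 CPM with OmoMYC, a log2 fold change of -0.38 (FDR = 0.000763). Its paralogue PDS5B was at 117, 104 and 96.3 CPM with EGFP and at 93.9, 95.7 and 88.9 CPM with OmoMYC and was not called (FDR = 0.0782), although its groups did not overlap.

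Both acetyltransferases of SMC3 were suppressed. ESCO2, which acts during replication, was at 52.7, 49.1 and 44.7 CPM with EGFP and at 28.6, 30.8 and 25.6 CPM with OmoMYC. Its log2 fold change of -0.78 ± 0.095 (standard error, FDR = 8.91e-05) was the second largest estimated fall. The estimates for TOP2A (-0.83) and SGOL2 (-0.78) differed from it by less than this standard error, so the order is not resolved. ESCO1, which acts through the cell cycle, was at 53.0, 46.2 and 43.3 CPM with EGFP and at 33.7, 31.8 and 31.8 CPM with OmoMYC, a log2 fold change of -0.55 (FDR = 0.000574). CDCA5 (sororin), which protects acetylated cohesin, fell by 0.21 on the log2 scale (FDR = 0.0219), from 143 ± 7.96 to 123 ± 2.48 CPM. As single libraries were left out, its log2 fold change stayed between -0.26 and -0.20, with an FDR of 0.0919 without OmoMYC replicate 1 and 0.0502 without OmoMYC replicate 2.

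All 4 genes of the shugoshin, separase and securin group were suppressed, where 25.7% of all tested genes were. SGOL2, a protector of centromeric cohesin, was at 78.8, 68.3 and 61.4 CPM with EGFP and at 39.9, 41.8 and 39.7 CPM with OmoMYC, a log2 fold change of -0.78 (FDR = 9.11e-05). SGOL1, its paralogue in mitosis, was at 30.4, 29.4 and 27.8 CPM with EGFP and at 19.7, 21.2 and 18.2 CPM with OmoMYC, a log2 fold change of -0.57 (FDR = 0.000399). Neither gene's groups overlapped. PTTG1, which encodes securin, was at 106, 106 and 95.3 CPM with EGFP and at 62.8, 61.8 and 59.6 CPM with OmoMYC, a log2 fold change of -0.73 (FDR = 2.44e-05). PTTG1 has near-identical copies in the genome, and how reads shared with them were counted is not given in the sources used here. Separase itself (ESPL1) fell by 0.23 on the log2 scale, from 180 ± 15.0 to 153 ± 7.54 CPM (FDR = 0.0288). Its log2 fold change stayed between -0.30 and -0.19 as single libraries were left out, with an FDR of 0.0903 without OmoMYC replicate 1 and 0.0749 without OmoMYC replicate 2.

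Of the 8 condensin genes, 7 were suppressed, where 25.7% of all tested genes were. The SMC subunits shared by both condensins, SMC2 and SMC4, fell by 0.53 and 0.50 on the log2 scale. In condensin I, which reaches chromosomes after the nuclear envelope opens, NCAPG was at 221, 185 and 171 CPM with EGFP and at 118, 120 and 111 CPM with OmoMYC, a log2 fold change of -0.72 (FDR = 0.000137). NCAPD2 was at 490, 498 and 508 CPM with EGFP and at 386, 374 and 387 CPM with OmoMYC (log2 fold change -0.38), and NCAPH was at 120, 124 and 124 CPM and at 95.4, 94.97 and 94.7 CPM (log2 fold change -0.37). The libraries of each group lay close together in both genes.

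In condensin II, which is nuclear throughout interphase, NCAPG2 was at 284, 261 and 248 CPM with EGFP and at 170, 168 and 164 CPM with OmoMYC, a log2 fold change of -0.66 (FDR = 3.66e-05). NCAPD3 was at 279, 264 and 262 CPM with EGFP and at 205, 192 and 196 CPM with OmoMYC (log2 fold change -0.44, FDR = 0.000257). NCAPH2, the kleisin of condensin II, was the exception among condensin genes, at 72.6, 82.1 and 94.1 CPM with EGFP and at 92.5, 93.0 and 107 CPM with OmoMYC. These NCAPH2 groups overlapped and the gene was not called (log2 fold change 0.23, FDR = 0.0744), but without EGFP replicate 3 it was (FDR = 0.00901).

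The SMC5/6 complex acts in DNA repair and replication. SMC5 fell by 0.41 on the log2 scale, and its partner SMC6, which is not among the 35 genes, by 0.47, from 90.4 ± 10.2 to 65.3 ± 2.91 CPM. NSMCE4A, a subunit that bridges the SMC heads, was at 25.5, 21.8 and 21.5 CPM with EGFP and at 15.9, 14.8 and 15.4 CPM with OmoMYC, a log2 fold change of -0.58 (FDR = 0.000557). NSMCE1, a RING-domain subunit, fell by 0.35. NSMCE2, the SUMO ligase of the complex, and NDNL2, its MAGE-family subunit, were not called, at log2 fold changes of -0.25 and -0.21 (FDR = 0.124 and 0.0742). Of the remaining pair, SMCHD1, a noncanonical SMC protein of the inactive X chromosome, fell by 0.46, and CTCF, which stops cohesin at loop boundaries, was at 115 ± 6.33 and 120 ± 4.0 CPM and was not called (95% interval -0.08 to 0.22).

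**Figure D4:**
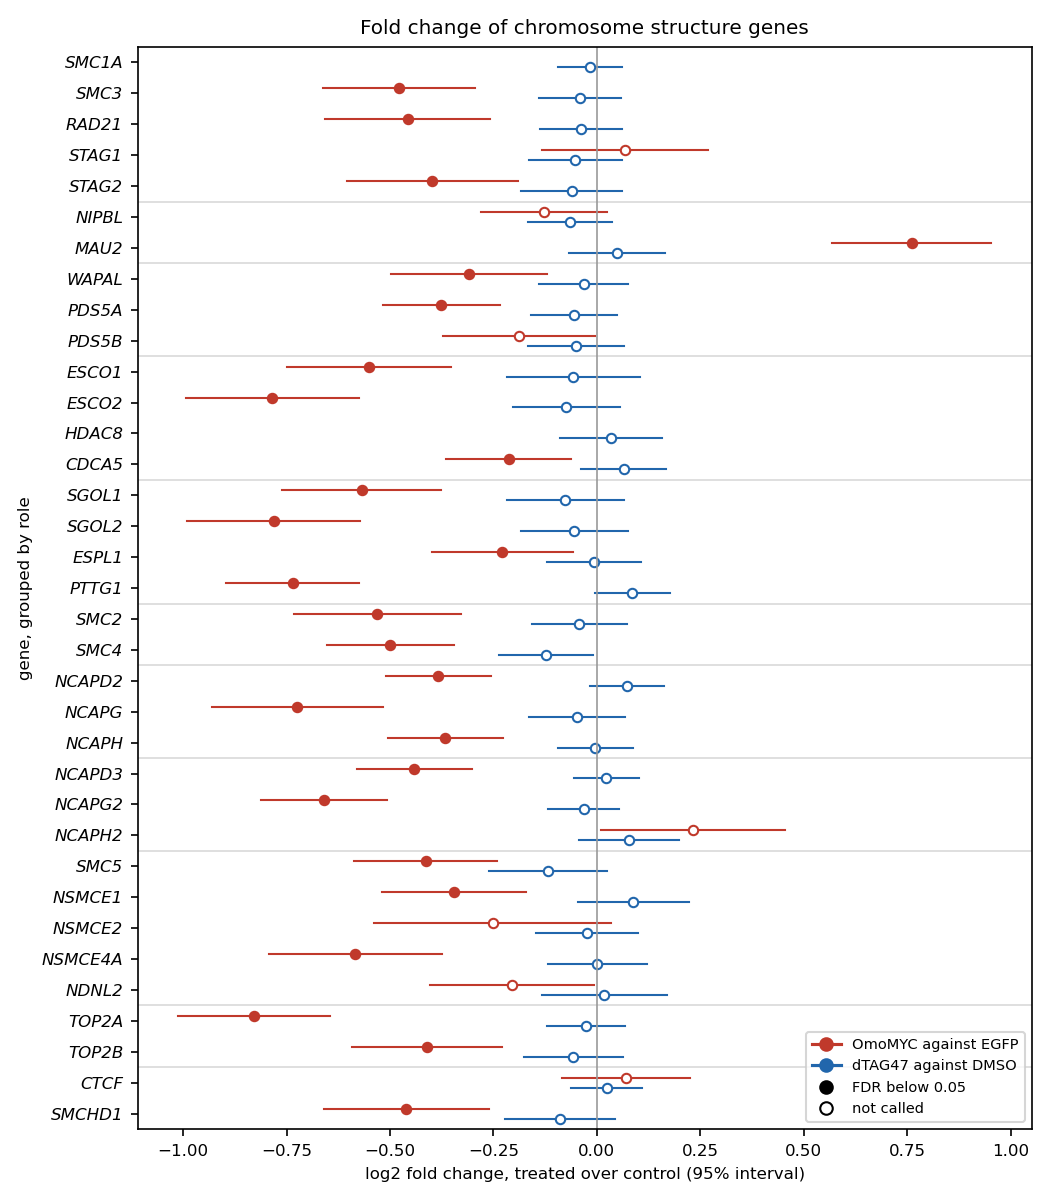
Log2 fold change with its 95% interval (horizontal) of each gene for OmoMYC against EGFP and dTAG47 against DMSO. Filled points have an FDR under 0.05. With OmoMYC, filled points lie between -0.83 and -0.21 except MAU2 at 0.76, and with dTAG47 no point is filled and values lie between -0.12 and 0.09. SMC1A and HDAC8 are not drawn for OmoMYC.

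Because the ratio of 2 genes in a library does not depend on how libraries are scaled, 8 pairs of paralogues were compared within libraries. The log2 ratio of TOP2A to TOP2B was 1.66 ± 0.0030 with EGFP and 1.24 ± 0.0494 with OmoMYC (SD, n = 3 each), a difference of -0.42. The ratio of NCAPH to NCAPH2 was 0.57 ± 0.162 and -0.03 ± 0.120, a difference of -0.60. That of STAG1 to STAG2 was -2.36 ± 0.0846 and -1.90 ± 0.0549, a difference of 0.46, so the share of STAG1 was higher with OmoMYC. In 6 of the 8 pairs the groups did not overlap, where the levels of 62.3% of single genes did not (the share among other pairs of genes was not computed). The remaining 3 of these pairs were PDS5A to PDS5B (difference -0.19), ESCO1 to ESCO2 (0.24) and SGOL1 to SGOL2 (0.20). By the 2-sided exact permutation test, p was 0.1 for each of these 6 pairs, the smallest that 3 against 3 libraries allow, and 0.133 after adjustment over the 8 pairs. The ratios of NCAPD2 to NCAPD3 and of NCAPG to NCAPG2 overlapped between groups (exact permutation p = 0.3 and 0.5), with differences of 0.06 and -0.06.

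**Figure D5:**
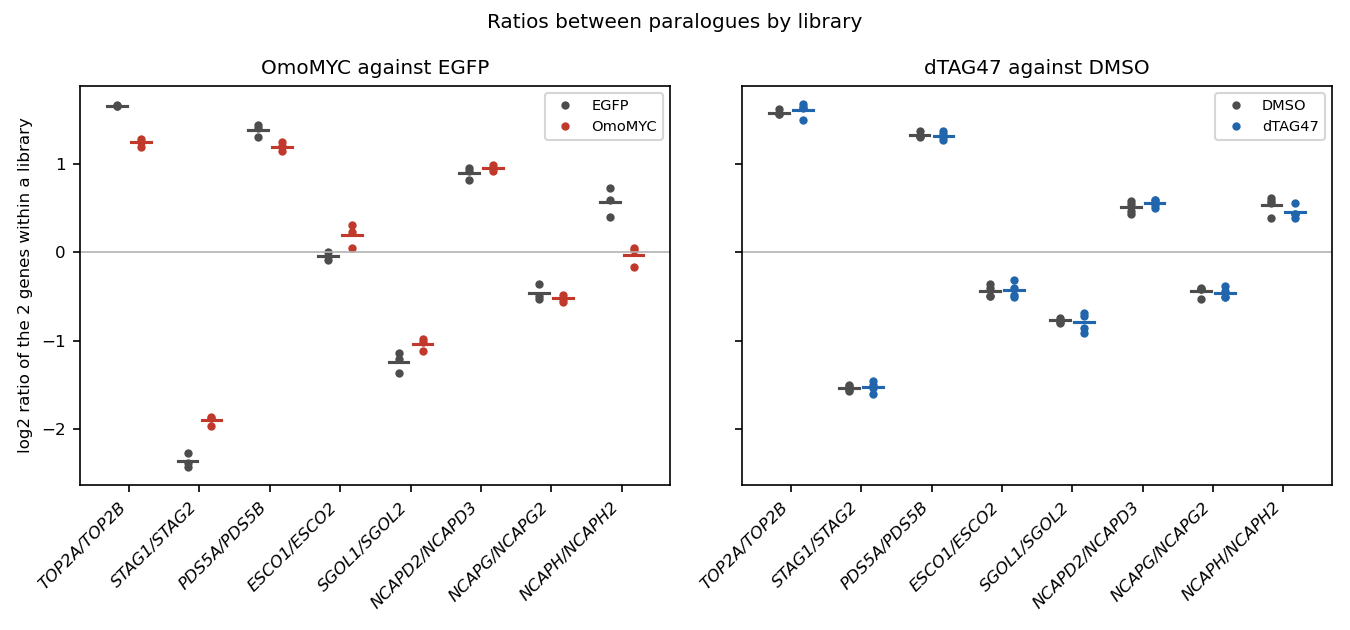
Log2 ratio of the CPM of 2 paralogues within each library (vertical), with 1 point per library and a bar for each group mean, for EGFP and OmoMYC (left) and DMSO and dTAG47 (right). TOP2A/TOP2B and NCAPH/NCAPH2 are lower and STAG1/STAG2 higher in all OmoMYC libraries, and all 8 pairs overlap between DMSO and dTAG47.

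Of 28 genes that work with these complexes, 17 were suppressed, 4 induced and 7 not called, where 25.7% of all tested genes were suppressed and 27.3% induced. Among the 7 were the mitotic genes PLK1, INCENP and CDC20 (FDR = 0.0728, 0.191 and 0.943). The largest changes among the 28 genes were in RAD21L1, CDK1 and DSCC1. CDK1, the mitotic kinase, was at 147, 111 and 96.5 CPM with EGFP and at 55.8, 63.7 and 53.8 CPM with OmoMYC (log2 fold change -1.03, FDR = 0.000168), and DSCC1, part of a PCNA loader used in cohesion, was at 54.3, 45.4 and 38.3 CPM and at 22.8, 24.2 and 23.8 CPM (log2 fold change -0.96, FDR = 9.36e-05). RAD21L1, a meiotic kleisin, was called induced (FDR = 0.000183) on 1, 3 and 4 counts with EGFP and 39, 32 and 25 with OmoMYC. The other induced genes, named after their values were seen, were STAG3 (log2 fold change 0.91), PPP2R1A (0.36) and CHTF8 (0.23), and reads of STAG3 may be shared with its near-identical copies. Genes of the cell cycle moved beside the chromosome genes. All 15 of a G2/M list and 11 of 15 measured genes of an S phase list were suppressed, against 25.7% of all tested genes. The summed level of the G2/M list was 3717 to 4276 CPM with EGFP and 2564 to 2642 CPM with OmoMYC. These lists were written with earlier results of these data known, and they do not hold every gene of those phases. MYCN itself was at 2408, 2830 and 2900 CPM with EGFP and at 2227, 2182 and 2312 CPM with OmoMYC (log2 fold change -0.28, FDR = 0.0103). The part of cell cycle stage in the values of the 35 genes was not tested.

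In parental cells treated with dTAG47, none of the 35 genes was called by edgeR's quasi-likelihood test or by DESeq2, and 1 gene (SMC4) had an unadjusted p under 0.05. Among all 14470 genes tested, edgeR called 0.159% (0.0415% suppressed and 0.117% induced) and 7.28% had an unadjusted p under 0.05, while DESeq2 called 0.453% of the genes it adjusted. The log2 fold changes ran from -0.12 to 0.09 with a median of -0.03, 24 being below 0 (50.8% of all genes were) and 11 above, and in all 35 genes the groups overlapped (3.34% of all genes did not). TOP2A was at 1213, 1224, 1099 and 1123 CPM with DMSO and at 1187, 1184, 1103 and 1100 CPM with dTAG47 (log2 fold change -0.03, 95% interval -0.12 to 0.07). MAU2 was at 66.0, 64.1, 69.5 and 73.5 CPM with DMSO and at 68.6, 65.9, 73.1 and 74.9 CPM with dTAG47 (95% interval -0.07 to 0.16). All 8 paralogue ratios overlapped between the groups, the smallest 2-sided exact permutation p being 0.257 (0.857 adjusted), where 4 against 4 libraries allow 0.0286.

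The lowest log2 fold changes with dTAG47 were those of SMC4, SMC5 and SMCHD1 (-0.12, -0.12 and -0.09). SMC4 was at 437, 430, 401 and 395 CPM with DMSO and at 393, 419, 364 and 353 CPM with dTAG47. SMC5 was at 178, 174, 154 and 151 CPM with DMSO and at 151, 172, 142 and 139 CPM with dTAG47. In both genes and both groups, replicates 3 and 4 lay below replicates 1 and 2. In 21 of the 35 genes both DMSO replicates 3 and 4 lay below DMSO replicates 1 and 2, against 31.6% of all tested genes, and the labels name no batch. With a factor for replicates 1 and 2 against 3 and 4, SMC4 and SMC5 were called suppressed (FDR = 0.01 and 0.0309), where 2.90% of all genes were called suppressed and 2.58% induced. Within replicates 1 and 2 alone 22 of the 35 genes were lower with dTAG47 (median log2 difference -0.04), and within replicates 3 and 4 alone 21 were (median -0.02). For all tested genes, edgeR fits of these replicates alone gave median log2 fold changes of 0.0016 and -0.00013, respectively. The share of all genes that were lower in each was not computed. The highest log2 fold changes were those of NSMCE1, PTTG1 and NCAPH2 (0.09, 0.09 and 0.08). With dTAG47 no gene of the G2/M list was called, its summed level being 2981 to 3181 CPM with DMSO and 2945 to 3070 CPM with dTAG47, and none of the 15 measured S phase genes or of 27 tested partner genes was called (by edgeR or DESeq2), 1 G2/M gene, 2 S phase genes and 0 partner genes having an unadjusted p under 0.05.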

How the data were processed

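RNA-seq was performed by the authors on total RNA after ribosomal RNA depletion. Per the labels and the study's methods, reads were trimmed with Cutadapt, aligned to hg19 with STAR and counted per gene with featureCounts. The deposited values are whole-number counts per gene with no normalization, in 1 table for EGFP and OmoMYC and 1 for the parental cells. Versions, annotation, strand setting and the handling of shared reads are not given in the sources used here. Columns were matched to samples by name, and all 14 were used.

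Each comparison was fitted within its own table in R 4.3.3 with edgeR 4.0.16 (filterByExpr, TMM, robust quasi-likelihood test, Benjamini-Hochberg adjustment over all tested genes, FDR 0.05), with treatment as the sole term. Intervals are 95%. Where a symbol had 2 identifiers, that with more counts was used. DESeq2 1.42.0, limma 3.58.1 (voom), other scalings and filters, a replicate block and the omission of each library were alternatives. Paralogue ratios are differences of log2 CPM (prior count 2). The code was tested on simulated data.

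Gene positions are from GENCODE v44lift37 on GRCh37, and promoter windows from RefSeq on GRCh38.p14. Values in every library are given for the 8 called genes with the largest change with OmoMYC, for genes called induced, for both genes of each paralogue pair and for the 3 partner genes with the largest change, and others by mean or range. For dTAG47, the 3 highest and 3 lowest genes, TOP2A and MAU2 are named, a choice made after their values were seen. The genes, lists and pairs were chosen with earlier results of these data known.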

Additional observations from a re-analysis of the deposited data

Results flagged for a closer look

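Among 70 groups of 4 libraries (35 genes with DMSO and with dTAG47), 2 held a library whose gap to the nearest other was above Dixon's 95% critical value for 4 samples, where chance flags about 1 in 20 groups. CDCA5 was at 122 CPM in dTAG47 replicate 2 against 138 to 142 CPM in the other dTAG47 libraries (ratio of gap to range 0.843). NSMCE2 was at 15.8 CPM in DMSO replicate 2 against 14.8 to 14.9 CPM in the other DMSO libraries (0.831). Groups of 3 libraries were not tested in this way.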

How the results depend on the processing

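With OmoMYC, 24 of the 34 tested genes were called under all 13 alternatives (the share of all genes was not computed). Under RLE factors, library size alone, no low-count filter, a minimum of 10 counts per library, DESeq2 and limma-voom, again 25 were suppressed and 1 induced. These settings called 3390 to 3669 of all genes suppressed and 3568 to 3905 induced, with 13006 to 17581 tested. Without SMC1A, an alternative chosen after seeing the data, 25 genes of the part were suppressed and 1 induced, with a median of -0.41. As single libraries were left out, 23 to 29 of these genes were suppressed and 1 to 2 induced, and the median was -0.50 to -0.37. Over all genes, 2842 to 4184 were then suppressed and 2698 to 4065 induced, with 13920 to 14022 tested. STAG1, which was not called, ranged from -0.0086 to 0.14 as libraries were left out and was below 0 without EGFP replicate 3 and without OmoMYC replicate 2.

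The study's methods state no pairing, and the numbers were not taken as pairs. Deviations of same-numbered libraries had correlations of -0.070 to 0.293 for EGFP and OmoMYC. For DMSO and dTAG47 they were all positive, at 0.009 to 0.159. Replicates 1 and 2 of either of these groups against 3 and 4 of the other had correlations of -0.226 to -0.019. This shared structure is left out of the main test for dTAG47. With a replicate block, 26 genes were suppressed and 2 induced by OmoMYC, PDS5B (FDR = 0.0383) and NCAPH2 (FDR = 0.00954) being called as well. Among all 13803 genes tested with OmoMYC, calls rose from 3545 suppressed and 3766 induced to 3867 and 4233 with that block. For dTAG47, 2 genes (SMC4 and SMC5) were called suppressed with the replicate block, 2 with the factor for replicates 1 and 2 against 3 and 4, and 2 in replicates 3 and 4 alone. Over all genes, 6 were called suppressed and 17 induced, with the replicate block 362 and 306, with the factor 420 and 374, in replicates 3 and 4 alone 470 and 426, and with DESeq2 15 and 44. Without dTAG47 replicate 2 the counts were 32 and 52, and without any other single library 2 to 3 and 4 to 11. Over the alternatives, 9 of the 35 genes changed sign.

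Paralogue ratios did not overlap between DMSO and dTAG47 in 0 to 1 pairs as single libraries were left out, in 2 pairs in replicates 1 and 2 alone and in 3 pairs in replicates 3 and 4 alone, 2 libraries a group, where 38.1% and 49.1% of single genes did not overlap. Their differences changed sign in replicates 1 and 2 alone for STAG1/STAG2 (-0.031) and NCAPG/NCAPG2 (0.0019), and in replicates 3 and 4 alone for ESCO1/ESCO2 (-0.069). As single libraries were left out, differences that changed sign ranged from -0.027 to 0.037 for ESCO1/ESCO2, from -0.024 to 0.011 for PDS5A/PDS5B, from -0.0094 to 0.038 for STAG1/STAG2, from -0.060 to 0.018 for SGOL1/SGOL2 and from -0.047 to 1.8e-05 for NCAPG/NCAPG2. The cause of these changes was not tested. RAD21L1 and, with EGFP and OmoMYC, SMC1A and HDAC8 had too few counts for their levels to be read.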
